A study of Mus musculus with 8 samples.

Results

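The genes described here are 35 listed mouse symbols of B cells, plasma cells and immunoglobulins, chosen by name and role. No rule on their measured values was used, but earlier results of these data were known. Of the 35 symbols, 33 were found among the 29621 genes quantified, and Ighd and Iglc1 were not analysed here. Between them, 31 passed the filter on low counts and were tested among 14267 genes, while Vpreb3 and Tnfrsf17 did not pass it. Gene expression was measured by sequencing total RNA, after ribosomal depletion, from whole pancreas of 6-week-old C57BL/6 mice (postnatal day 42). KPC-OG mice carried p48-Cre, a Cre-activated oncogenic allele, Trp53fl/fl and R26tm1(LSL-OG), and KPC mice carried the same alleles without the R26 allele, so that all mice shared the tumour-driving alleles and no library came from a pancreas without them. Each genotype had 4 libraries, here called KPC-OG 1 to 4 and KPC 1 to 4. The p48 locus (Ptf1a) drives Cre in the epithelial lineage of the pancreas, to which B cells do not belong.

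Each library held 13671606 to 18292115 estimated reads in KPC-OG and 7373286 to 11292570 in KPC. Levels are CPM, a gene's share of the counts of its library, scaled by the trimmed mean of M values (TMM), which assumes that most genes do not differ. The TMM factors ran from 1.14 to 2.28 in KPC-OG and from 0.483 to 0.653 in KPC, so a given CPM rests on fewer reads in KPC. A count of 0 allows a level of up to 0.573 CPM in KPC 1 and 0.796 CPM in KPC 3, for counting error only. Whether every library is a separate mouse is not in the labels, and the p-values refer to the spread among these libraries, which may be technical. The acinar markers were present in every library, as in pancreas. In KPC-OG, 7 of the 8 acinar markers were lower (4 without KPC 1 or without KPC-OG 2) and 6 of 8 duct and epithelial markers higher with 1, Muc1, lower, and all 3 tested of the 6 intestinal markers were higher, while none of the 5 tested adipocyte markers passed the test. Of the 6 tested red blood cell markers 3 were higher, but leaving out 1 library moved that count between 0 (without KPC-OG 3 or KPC-OG 4) and 5 (without KPC-OG 1), and it was 1 without KPC-OG 2, KPC 1, KPC 3 or KPC 4.

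B cells carry an antigen receptor made of an immunoglobulin bound to the CD79 signalling pair. A naive B cell uses the mu heavy chain (Ighm), first as a membrane form. After activation it can switch to alpha, gamma or epsilon constant regions, and it can become a plasma cell, which secretes antibody in bulk. B cells gather with T cells in lymph nodes and in follicles within inflamed tissue, while a healthy pancreas holds few of them. In C57BL/6 mice the Ighg2c gene stands in place of Ighg2a.

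Stretches that help tell the forms of Ighm and the gamma constant regions from one another are shown first. The membrane and secreted forms of Ighm share their first exons and end differently. The lines below give the 3′ end of the coding sequence of each form from the GENCODE M21 transcripts (GRCm38, chromosome 12, minus strand), with the bases of that form only in capitals, 125 for the membrane form and 62 for the secreted one.
Ighm membrane: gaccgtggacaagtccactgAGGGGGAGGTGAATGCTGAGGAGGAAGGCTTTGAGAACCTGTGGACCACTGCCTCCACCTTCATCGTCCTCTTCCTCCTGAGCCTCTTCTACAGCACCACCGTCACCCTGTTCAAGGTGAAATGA
Ighm secreted: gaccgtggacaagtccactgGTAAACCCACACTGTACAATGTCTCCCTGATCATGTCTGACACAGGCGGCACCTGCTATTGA

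The gamma constant regions are close relatives, and the hinge, the flexible link between antibody arms and stem, is where they differ most plainly. The hinge exons of the 3 gamma genes described here lie on the minus strand of chromosome 12 in GRCm38, at chr12:113329844-113329882 for Ighg1, chr12:113307261-113307326 for Ighg2b and chr12:113288263-113288325 for Ighg2c. They are the second exon of each transcript and are in capitals, 39, 66 and 63 bases long, between 10 bases on each side from the neighbouring exons.
Ighg1 hinge: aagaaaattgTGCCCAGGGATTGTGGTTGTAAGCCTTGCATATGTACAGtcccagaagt
Ighg2b hinge: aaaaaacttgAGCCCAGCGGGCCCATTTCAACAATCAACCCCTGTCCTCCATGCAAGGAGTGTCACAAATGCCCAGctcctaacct
Ighg2c hinge: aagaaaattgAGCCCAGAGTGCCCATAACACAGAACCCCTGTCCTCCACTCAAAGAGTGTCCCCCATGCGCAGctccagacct

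The authors' program assigned reads by words of 20 bases. The words below were counted in GENCODE M21 sequences, which can differ from those of the authors' index. In GENCODE M21 the longest Ighm transcript has 1698 bases, against a deposited length of 1424. Of the 20-base words of Ighg1, 93.95% occurred in no other gene of the annotated transcripts, against 83.85% for Ighg2c and 80.46% for Ighg2b. All words of Ighm and Iglc2 were unique, as were 99.72% of those of Igha and 99.61% of those of Igkc. The split of reads among Ighg2b, Ighg2c and their relatives is therefore less certain than that of Ighm, Igha and Igkc.

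None of the 31 tested genes differed between the genotypes in edgeR's quasi-likelihood test with Benjamini-Hochberg adjustment at 0.05. Across the whole set of 14267 genes tested, the calls came to 34.1%, with 17.4% in the higher direction and 16.6% in the lower one. The counts of the marker and context lists given elsewhere are to be read beside these shares. None of the 31 had an unadjusted p under 0.05 either, and DESeq2 and limma-voom also called none. The log2 fold change, KPC-OG over KPC, was positive for 26 and negative for 5, with a median of 0.42, against 0.09 over all tested genes. That median rested on single libraries: it was 0.016 without KPC-OG 2, against 0.062 over all tested genes, and 0.75 without KPC-OG 1, 0.11 without KPC 1, 0.87 without KPC 2, 0.26 without KPC 3 and 1.05 without KPC 4. Without KPC-OG 2 and KPC-OG 3 together it was -0.72. The standard error had a median of 1.01, against 0.22 over all tested genes, so differences of several fold in either direction lie within the error for most of these genes. The groups overlapped for all 33, but the share of all tested genes that overlap was not counted, so this is a description only. The count depends on the scaling: with library sizes alone and no TMM factor, 16 of the 31 passed as higher, but so did 13078 of all tested genes, and the median log2 fold change of all genes was then 1.82. With those same library sizes centred on the median gene, none passed.

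The spread lay in single libraries, and it ran through nearly all the genes at once. Within KPC-OG, library 2 was the highest for 30 of the 33 genes, 90.9%, against 19.1% of all tested genes, and library 1 was the lowest for 32, against 22.5%. Within KPC, library 4 was the highest for 23 and library 2 for the other 10, and library 1 or 3 was the lowest, or tied at 0, for most. Over all 8 libraries KPC-OG 2 was the highest for 24 of 33, or 72.7%, against 11.6% of all tested genes, and KPC 4 for 6. In KPC 1, 10 of the 33 genes had no read, and in KPC 3, 9 had none, whereas KPC-OG 1 and KPC 2 each had 1 such gene and the other libraries none. The genes are not independent of one another, and these counts are a description.

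**Figure D1:**
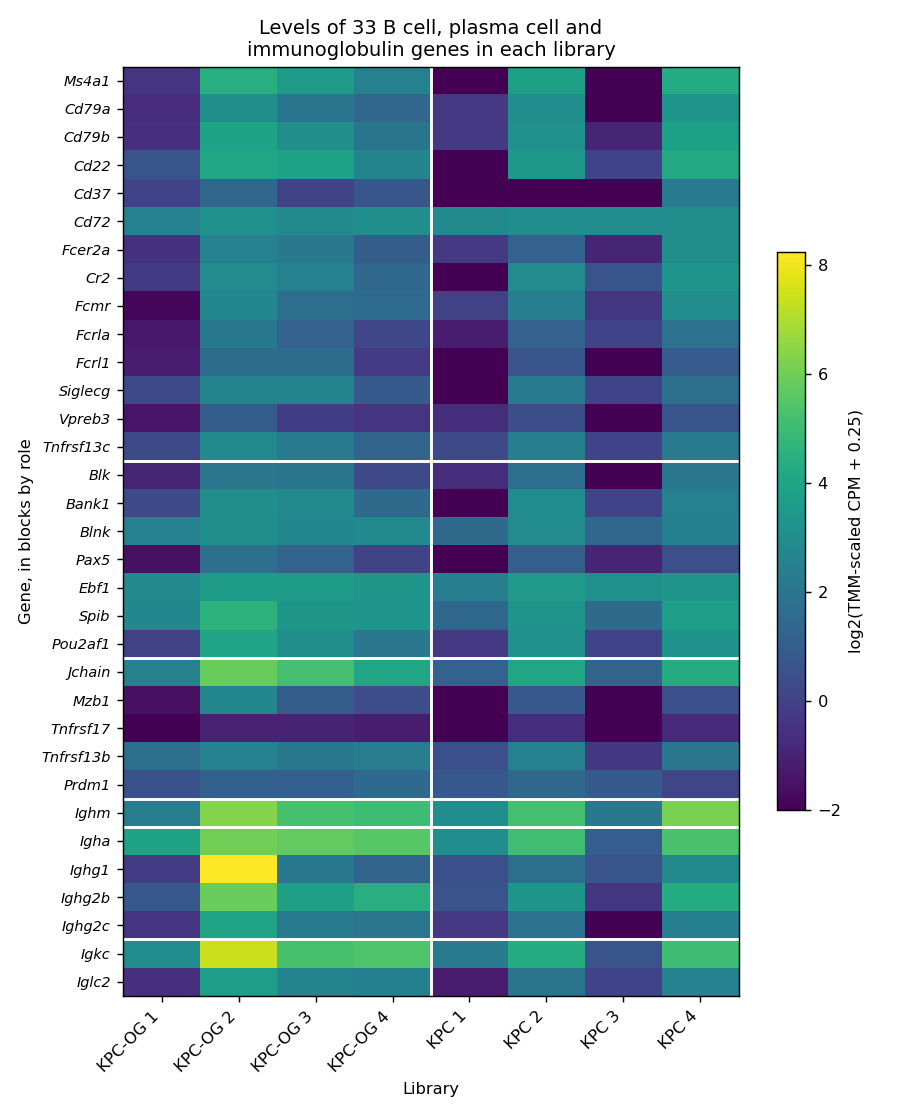
Level of each of the 33 genes (rows, in blocks by role from B cell surface genes at the top to light chains at the bottom) in each library (columns, KPC-OG left of the white line and KPC right of it), as log2 of TMM-scaled CPM plus 0.25. KPC-OG 2 is the brightest column for 24 of the 33 genes. In KPC 1, KPC 3 and KPC-OG 1 most rows are dark, with Cd72 and Ebf1 among the exceptions. Igha is another in KPC-OG 1, and Ighm and Igha are others in KPC 1.

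Most B cell surface genes varied widely between libraries of the same genotype. Ms4a1 encodes CD20, a membrane protein of mature B cells. Its level was 0.487, 21.2, 11.7 and 5.42 CPM in KPC-OG 1 to 4, against 0, 13.7, 0 and 19.4 CPM in KPC 1 to 4. KPC-OG 2 and KPC 4 were close to one another at the top, and KPC-OG 1, KPC 1 and KPC 3 were at or near 0. The means were 9.68 ± 8.92 CPM in KPC-OG and 8.28 ± 9.84 CPM in KPC (SD, n = 4 each), and the log2 fold change was 0.17 with a standard error of 1.27 (edgeR adjusted p = 0.934).

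Cd79a and Cd79b encode the signalling pair of the antigen receptor. Cd79a stood at 0.365, 8.42, 3.67 and 2.32 CPM in KPC-OG 1 to 4 and at 0.573, 7.89, 0 and 9.79 CPM in KPC 1 to 4. Cd79b stood at 0.426, 15.1, 8.32 and 3.72 CPM in KPC-OG and at 0.573, 8.64, 0.265 and 13.5 CPM in KPC. In both genes the same libraries were high and low as for Ms4a1, and the groups overlapped throughout. The log2 fold changes were -0.35 ± 1.09 for Cd79a and 0.21 ± 1.14 for Cd79b (± standard error), with edgeR adjusted p of 0.831 and 0.909.

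Cd22 encodes an inhibitory lectin of the B cell surface. It was at 1.31, 16.2, 14.3 and 5.95 CPM in KPC-OG and at 0, 10.9, 0.796 and 17.9 CPM in KPC, again high in KPC-OG 2 and KPC 4. Siglecg, a related inhibitory lectin, was at 0.974, 5.73, 5.83 and 1.64 CPM in KPC-OG and at 0, 4.51, 0.796 and 3.21 CPM in KPC, with KPC-OG 3 marginally above KPC-OG 2. Their log2 fold changes were 0.29 ± 1.08 and 0.67 ± 0.88 (± standard error), and neither passed the test.

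The receptors of the follicle showed the same order. Cr2, the complement receptor CD21, was at 0.578, 7.39, 5.30 and 2.44 CPM in KPC-OG and 0, 7.32, 1.33 and 10.1 CPM in KPC. Fcer2a, the low-affinity IgE receptor CD23, was at 0.457, 5.21, 4.19 and 1.79 CPM in KPC-OG and 0.573, 2.07, 0.265 and 8.10 CPM in KPC. Fcmr, a receptor for IgM, was at 0.0304, 6.58, 3.01 and 2.71 CPM in KPC-OG and 0.764, 4.88, 0.531 and 7.77 CPM in KPC. For all 3 genes KPC 4 exceeded every KPC-OG library, and their log2 fold changes, -0.31 for Cr2, -0.00 for Fcer2a and -0.22 for Fcmr, lay well inside their standard errors of 1.01, 0.84 and 1.11.

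Tnfrsf13c encodes the BAFF receptor, which mature B cells need to survive. Its level was 0.974, 7.05, 4.58 and 2.23 CPM in KPC-OG and 0.955, 4.88, 0.796 and 4.56 CPM in KPC, with a log2 fold change of 0.36 ± 0.71 (standard error). Fcrla and Fcrl1, Fc receptor-like proteins of B cells, did not exceed 4.17 CPM in any library, and their log2 fold changes were 0.14 ± 0.95 and 0.97 ± 1.08. Vpreb3, a small protein of developing B cells, was under 2 CPM everywhere, at most 1.76 CPM in KPC-OG 2 and 1.35 CPM in KPC 4, and was not tested.

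A pair of surface genes departed from the pattern. Cd72, a co-receptor that dampens antigen receptor signals, was at 5.42, 8.71, 7.20 and 8.31 CPM in KPC-OG and at 7.26, 7.89, 7.70 and 8.10 CPM in KPC. It was present at nearly the same level in every library, KPC 1 and KPC 3 included, where Ms4a1 had no read, and its highest level was 1.61 times its lowest. Its log2 fold change was -0.06 with a standard error of 0.18, the smallest error among the 31 genes (edgeR adjusted p = 0.823). Cd37, a tetraspanin of leukocytes, was at 0.791, 2.38, 0.786 and 1.43 CPM in KPC-OG and was read in KPC 4 only, at 4.56 CPM, with 0 in KPC 1 to 3. Its fold change turned on that library: without KPC 4, the log2 fold change was 7.72 in place of 0.15 and the gene passed the test, against a KPC group then wholly at 0.

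**Figure D2:**
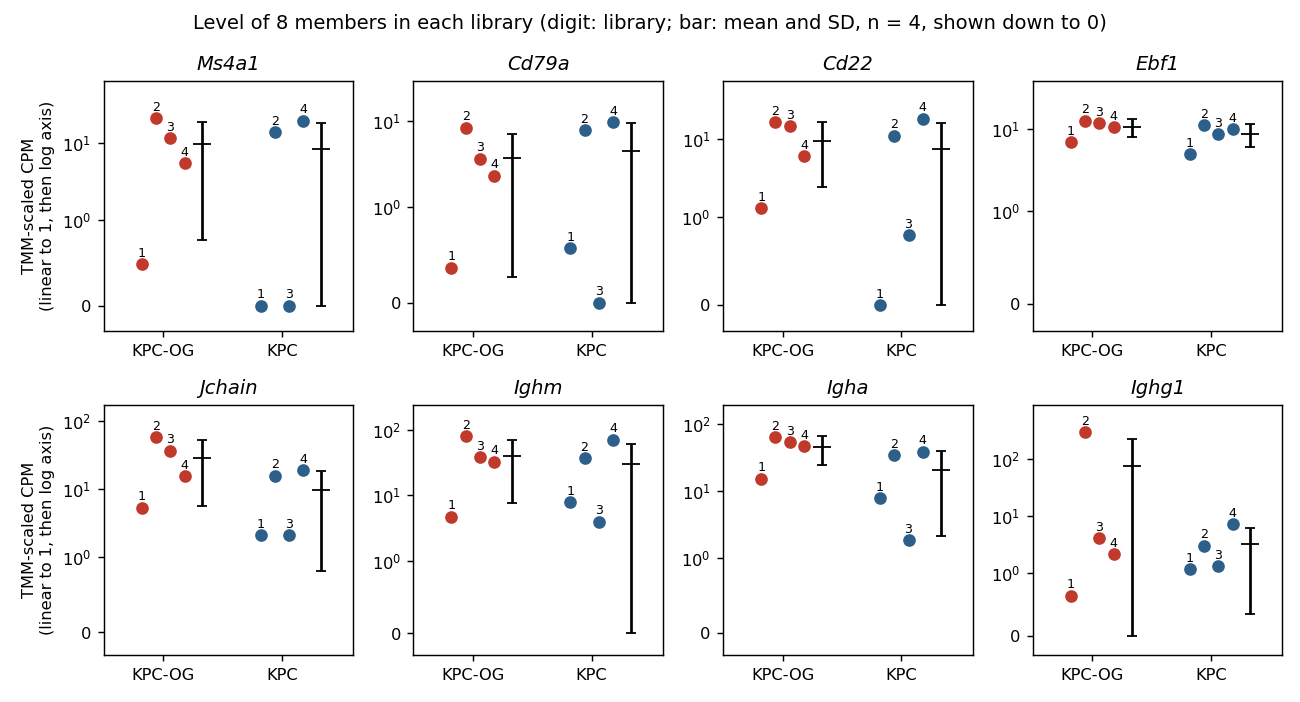
TMM-scaled CPM (vertical axes, linear up to 1 and logarithmic above) of 8 genes in each library, with KPC-OG in red left of KPC in blue, the library number beside each point, and the mean and SD of 4 libraries as a bar that is shown down to 0. Ms4a1 has points at 0.487 in KPC-OG and at 0 in KPC beside others above 10 CPM in both genotypes, Ebf1 varies little, and Ighg1 has a single point at 301.9 CPM in KPC-OG 2.

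Among the genes that act inside the B cell, the kinase and adaptor genes split in the same way. Blk, a Src-family kinase of B cells, was at 0.274, 3.96, 3.73 and 0.953 CPM in KPC-OG and at 0.382, 3.01, 0 and 3.88 CPM in KPC. Bank1, a scaffold in receptor signalling, was at 1.07, 8.11, 7.27 and 2.65 CPM in KPC-OG and 0, 7.70, 0.796 and 5.23 CPM in KPC. Both followed Ms4a1 across libraries, with log2 fold changes of 0.20 ± 1.0 and 0.42 ± 0.96 (± standard error). Blnk, the adaptor that links the kinase Syk to downstream enzymes, was more even, at 5.36, 8.34, 6.35 and 7.17 CPM in KPC-OG and 2.67, 7.51, 2.39 and 5.07 CPM in KPC. Its log2 fold change was 0.60 ± 0.33 (edgeR adjusted p = 0.178), and with TMM scaling it passed as higher only when KPC 2 was left out, at 0.97 (edgeR adjusted p = 0.0361).

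The transcription factors divided between those that followed the B cell genes and those that did not. Pax5, which holds cells in the B lineage, was at 0.0913, 3.21, 2.16 and 0.834 CPM in KPC-OG and 0, 1.88, 0.265 and 1.18 CPM in KPC. Pou2af1, a coactivator that works with octamer-binding factors, was at 0.731, 15.4, 8.05 and 3.96 CPM in KPC-OG and 0.573, 8.45, 0.796 and 9.46 CPM in KPC. Both were lowest in KPC-OG 1, KPC 1 and KPC 3, with log2 fold changes of 0.85 ± 1.06 for Pax5 and 0.50 ± 1.01 for Pou2af1 (± standard error).

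Spib, an ETS-family factor of B cells and plasmacytoid dendritic cells, was at 6.51, 23.9, 10.3 and 10.2 CPM in KPC-OG and at 2.48, 9.58, 2.65 and 13.2 CPM in KPC. Within each genotype the same libraries were high as for Ms4a1, but the lowest were well above 0 and KPC 2 lay below KPC-OG 3 and KPC-OG 4, and the log2 fold change was 0.84 ± 0.58 (edgeR adjusted p = 0.302). Ebf1, a factor of the early B lineage that fat and stromal cells also use, was at 6.88, 12.5, 11.7 and 10.4 CPM in KPC-OG and at 4.97, 11.1, 8.49 and 9.79 CPM in KPC. Its highest library was 2.51 times its lowest, and the log2 fold change was 0.27 ± 0.26 (edgeR adjusted p = 0.456).

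The octamer ATGCAAAT (ATTTGCAT on the other strand), the motif at which Pou2af1 acts, was searched on both strands of the RefSeq promoter windows of GRCm38.p6, from 250 bases before to 50 after each start. Windows were matched for 22 of the 33 genes, and 2 of them, Vpreb3 and Blnk, held the octamer, against 1.97% of all 27018 genes with a window. The ETS motif GAGGAAGT was found for 3 of the 22, Cd37, Cd72 and Fcrl1, against 3.69% of all, and the core motif of the Ebf1 family, CCCNNGGG, for 3, Bank1, Cd22 and Spib, against 15.4%. The octamer windows lie at chr10:75948225-75948292 (plus strand), 45 bases before the start of Vpreb3, and at chr19:40994314-40994381 (minus strand), 130 bases before that of Blnk. They are given from RefSeq with the octamer in capitals, as the letters found and not as sites shown to be bound.
Vpreb3: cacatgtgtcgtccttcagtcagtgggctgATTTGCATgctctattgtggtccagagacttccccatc
Blnk: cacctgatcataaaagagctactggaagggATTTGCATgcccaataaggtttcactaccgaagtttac

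The plasma cell genes also varied by library, and all but Prdm1 and Tnfrsf17 were highest within KPC-OG in KPC-OG 2. Of the 5, 4 were tested, with a median log2 fold change of 1.07, against 0.15 for the 13 tested surface genes and 0.50 for the 7 signalling and transcription genes. Jchain encodes the joining chain of IgM and IgA polymers. It was at 5.33, 58.5, 37.0 and 15.7 CPM in KPC-OG and at 2.10, 15.8, 2.12 and 19.2 CPM in KPC. KPC-OG 2 and KPC-OG 3 exceeded every KPC library, KPC-OG 4 lay just under KPC 2, and KPC-OG 1 was above KPC 1 and KPC 3 only. The log2 fold change was 1.52 ± 0.90 (edgeR adjusted p = 0.228), and 0.92 without KPC-OG 2.

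Mzb1, a chaperone of the endoplasmic reticulum that helps antibody assembly, was at 0.0913, 6.50, 1.77 and 1.07 CPM in KPC-OG and at 0, 1.5, 0 and 1.18 CPM in KPC. KPC-OG 2 stood apart and the other 3 KPC-OG libraries lay in or near the KPC range, with a log2 fold change of 1.72 ± 1.27 (edgeR adjusted p = 0.325), and 0.39 without KPC-OG 2. Tnfrsf13b, the receptor TACI, was at 2.98, 5.49, 4.06 and 4.73 CPM in KPC-OG and 1.15, 5.26, 0.531 and 3.88 CPM in KPC (log2 fold change 0.63 ± 0.50). Prdm1, the factor Blimp-1 that drives plasma cell formation and also acts in T cells and epithelium, was highest within KPC-OG in KPC-OG 4 and lowest within KPC in KPC 4, at 1.25, 2.02, 1.96 and 2.59 CPM in KPC-OG and 1.53, 2.44, 1.59 and 0.844 CPM in KPC (0.30 ± 0.39). Tnfrsf17, the plasma cell receptor BCMA, had 0, 9, 4 and 6 estimated reads in KPC-OG and 0, 2, 0 and 2 in KPC, too few to test.

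The immunoglobulin constant regions summed here are Ighm, Igha, Ighg1, Ighg2b, Ighg2c, Igkc and Iglc2, without Ighg3 and Ighe. Together they took 0.00560%, 0.156%, 0.0181% and 0.0353% of all gene counts in KPC-OG 1 to 4. In KPC 1 to 4 they took 0.00112%, 0.00726%, 0.000524% and 0.0102%. These shares are before TMM scaling. KPC-OG 2, KPC-OG 3 and KPC-OG 4 exceeded every KPC library on that scale, and KPC-OG 1 lay below KPC 2 and KPC 4. Most genes were higher in KPC-OG without TMM scaling: 13078 of 14267 passed as higher, with a median log2 fold change of 1.82 over all. In summed TMM-scaled CPM the values were 30.7, 707.4, 158.7 and 155.8 in KPC-OG and 23.3, 111.2, 9.82 and 181.0 in KPC, where KPC 4 exceeded all KPC-OG libraries but KPC-OG 2.

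Ighm, the heavy chain of IgM, was at 4.75, 81.8, 38.4 and 33.1 CPM in KPC-OG and at 7.83, 37.0, 3.98 and 71.4 CPM in KPC. KPC-OG 2 and KPC 4 were the highest, as for Ms4a1, and KPC-OG 1 was below KPC 1. The means were 39.5 ± 31.8 CPM in KPC-OG and 30.1 ± 31.3 CPM in KPC (SD, n = 4 each), with a log2 fold change of 0.37 ± 0.97 (standard error, edgeR adjusted p = 0.800).

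The 4 switched heavy chains had a median log2 fold change of 1.44, and none passed the test. Igha, the heavy chain of IgA, the antibody of mucosal secretions, was at 15.3, 64.2, 54.0 and 47.1 CPM in KPC-OG and at 7.83, 33.8, 1.86 and 38.7 CPM in KPC. The 3 highest libraries were KPC-OG 2, 3 and 4, while KPC-OG 1 lay below KPC 2 and KPC 4. The log2 fold change was 1.11 ± 0.76 (standard error, edgeR adjusted p = 0.300).

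Ighg1, the heavy chain of IgG1, was at 0.639, 301.9, 4.13 and 2.14 CPM in KPC-OG and at 1.15, 3.01, 1.33 and 7.26 CPM in KPC. The counts behind these were 21, 11649, 63 and 72 in KPC-OG and 6, 16, 5 and 43 in KPC, so 1 library held nearly all of the reads, and KPC-OG 3 and KPC-OG 4 were below KPC 4. The log2 fold change was 4.53, the highest of the 31, and so was its standard error of 2.09 (edgeR adjusted p = 0.133). Without KPC-OG 2 it was -0.54 (edgeR adjusted p = 0.638).

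Ighg2b was at 1.52, 60.2, 13.8 and 21.8 CPM in KPC-OG and at 1.34, 10.5, 0.531 and 20.3 CPM in KPC, and Ighg2c at 0.487, 15.7, 4.32 and 3.84 CPM in KPC-OG and 0.573, 3.38, 0 and 5.07 CPM in KPC. KPC-OG 2 was again the highest, but by far less than for Ighg1. Their log2 fold changes were 1.52 ± 1.15 and 1.36 ± 1.10 (± standard error), with edgeR adjusted p of 0.343 and 0.376. Without KPC-OG 2 they were 0.54 and 0.27, and without KPC 4 Ighg2b was 2.48 and Ighg2c 2.11.

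Expressed as shares of all heavy chain constant region counts, Ighg1 made up 56.2% in KPC-OG 2 (exact binomial 95% interval 55.5% to 56.9%, of 20732 counts). In KPC-OG 1, 3 and 4 the Ighg1 share was 2.82%, 3.53% and 1.94%, and in KPC 1, 2 and 4 it was 6.12%, 3.35% and 5%. KPC 3 gave 17.2%, but from 5 of 29 counts, with an interval of 5.85% to 35.8%. The Ighm share was 21%, 15.2%, 32.9% and 29.97% in KPC-OG 1 to 4, each below the lowest KPC library. In KPC 1 to 4 it was 41.8%, 41.2%, 51.7% and 49.2%. The intervals of KPC 1 (31.9% to 52.2%) and KPC 3 (32.5% to 70.6%) overlapped that of KPC-OG 3 (30.7% to 35.1%). Those of KPC 2 and KPC 4 began above it, at 36.8% and 45.8%. Igha took 67.3%, 11.9%, 46.2% and 42.7% in KPC-OG and 41.8%, 37.7%, 24.1% and 26.6% in KPC, so it was the leading class in 3 KPC-OG libraries, and Ighg1 was in the other. The differences in share between genotypes were not tested. The intervals cover counting error only, since reads are not independent molecules.

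**Figure D3:**
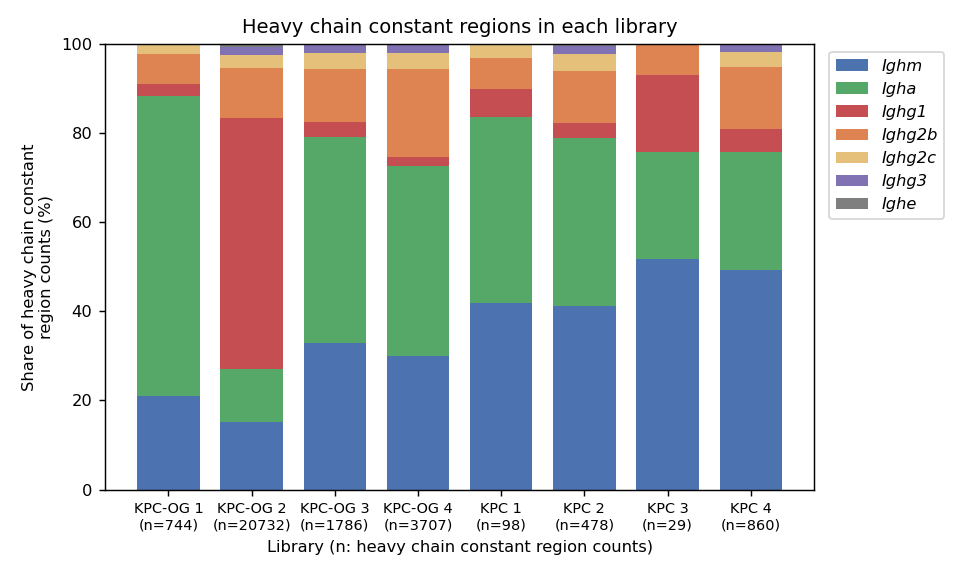
Share of heavy chain constant region counts (vertical axis, %) taken by each class in each library, with the number of counts under each bar. Ighm takes 15.2% to 32.9% in the KPC-OG libraries and 41.2% to 51.7% in the KPC libraries, and Ighg1 takes 56.2% in KPC-OG 2.

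Per unit of length, in the deposited TPM values, the 4 switched genes together held 5.06, 7.59, 2.69 and 3.06 times the level of Ighm in KPC-OG 1 to 4, against 1.88, 1.87, 1.33 and 1.37 times in KPC 1 to 4. The ratio needs no scaling between libraries, and the groups did not overlap. It was 1 of several ratios looked at, KPC 1 and KPC 3 rest on 98 and 29 heavy chain counts, and it is given as a description with no test. Set against the summed TPM of Ms4a1, Cd79a, Cd79b and Cd22, the switched genes stood at 15.8, 13.9, 4.09 and 7.56 in KPC-OG and 13.0, 2.43, 9.98 and 2.31 in KPC. That second ratio overlapped between the genotypes, and in KPC 1 and KPC 3 it rests on 6 and 4 B cell counts, against 219 and 359 in KPC 2 and KPC 4 and 85 to 2349 in KPC-OG.

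The membrane form of Ighm, whose distinct end is printed above, made up 29.9%, 38.7%, 50.3% and 40.8% of Ighm counts in KPC-OG 1 to 4, against 41.5%, 62.4%, 100% and 64.1% in KPC 1 to 4. The exact binomial 95% intervals of the well-covered libraries were 37.0% to 40.5% in KPC-OG 2, 46.1% to 54.4% in KPC-OG 3 and 37.9% to 43.8% in KPC-OG 4, against 55.3% to 69.2% in KPC 2 and 59.3% to 68.6% in KPC 4. KPC 1 had 41 counts and lay within the KPC-OG range, and KPC 3 had only 15. The split is the program's estimate between transcripts of 1424 and 1367 bases that share most of their sequence, and the difference between genotypes was not tested.

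The light chains pair with any heavy chain, and in mice most antibodies use kappa. Igkc, the kappa constant region, was at 7.67, 170.6, 38.3 and 42.8 CPM in KPC-OG and at 4.39, 19.9, 1.33 and 32.8 CPM in KPC. KPC-OG 2, 3 and 4 exceeded all KPC libraries, and KPC-OG 1 lay between KPC 1 and KPC 2. The log2 fold change was 2.11 ± 1.07 (standard error, edgeR adjusted p = 0.164), and 0.97 without KPC-OG 2. Iglc2, a lambda constant region, was at 0.426, 13.1, 5.70 and 5.06 CPM in KPC-OG and 0.191, 3.57, 0.796 and 5.57 CPM in KPC, with a log2 fold change of 1.20 ± 1.02 (edgeR adjusted p = 0.400), 0.49 without KPC-OG 2 and 1.94 without KPC 4. On the length-corrected TPM scale Igkc had the highest level of the 33 genes in KPC-OG 2, 1594, and Ighg1 followed with 898.

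**Figure D4:**
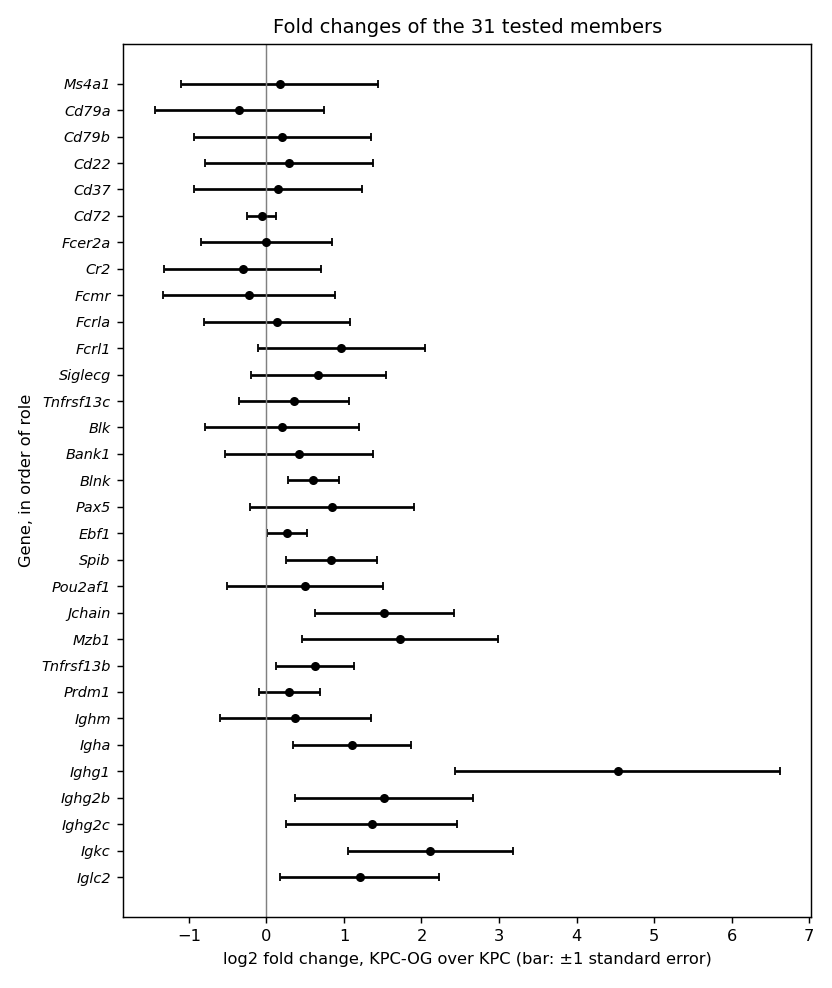
Log2 fold change of each of the 31 tested genes, KPC-OG over KPC (horizontal axis; bars are ± 1 standard error), with genes listed from B cell surface genes at the top to light chains at the bottom. Surface genes lie around 0, Jchain, Mzb1 and the immunoglobulin genes other than Ighm lie above 1 with wide bars, Ighg1 at 4.53 has the widest, and none passed the test.

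Markers of other lymphoid tissue moved with these genes from library to library. Of the 13 T cell markers, 12 were highest within KPC-OG in KPC-OG 2, and within KPC 8 were highest in KPC 4 and 5 in KPC 2. Their summed level ran from 7.64 to 69.7 CPM in KPC-OG and from 2.39 to 52.0 CPM in KPC, with 6 of the 13 at 0 in KPC 1 and 8 at 0 in KPC 3. None of the 12 tested T cell markers passed the test (median log2 fold change 0.35). Cd4 was at 1.28, 11.8, 6.61 and 3.24 CPM in KPC-OG and at 0.191, 9.77, 0 and 9.79 CPM in KPC.

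Of the 8 lymph node and follicle stroma markers found, 6 were highest within KPC-OG in KPC-OG 2, and 6 within KPC in KPC 4 and 2 in KPC 2. Glycam1, a sulphated ligand that the high endothelial venules of lymph nodes make, had 2, 2943, 166 and 134 counts in KPC-OG and 0, 107, 3 and 71 in KPC. Ccl19, a chemokine of the T cell zone, had 51, 513, 44 and 112 counts in KPC-OG and 1, 29, 3 and 53 in KPC. Both were lowest in KPC 1 and KPC 3 within KPC and, in CPM, in KPC-OG 1 within KPC-OG, as Ms4a1 was. The summed level of the 8 ran from 1848 to 3937 CPM in KPC-OG and from 899.5 to 1452 CPM in KPC, nearly all of it from Clu, which epithelium also makes. Clu was the one of the 7 tested that passed, as higher. The part of lymphoid tissue in or beside the pancreas in the B cell results was not tested. In bulk RNA, fewer B cells and less RNA per B cell cannot be told apart.

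**Figure D5:**
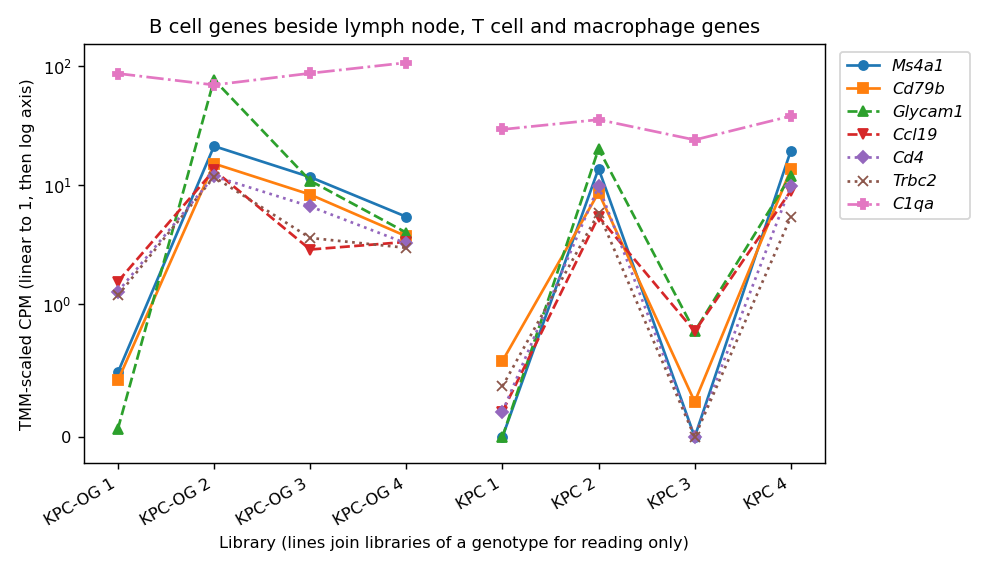
TMM-scaled CPM (vertical axis, linear up to 1 and logarithmic above) in each library of the B cell genes Ms4a1 and Cd79b, the lymph node genes Glycam1 and Ccl19, the T cell genes Cd4 and Trbc2 and the macrophage gene C1qa, with KPC-OG libraries left of KPC ones. The B cell, T cell and lymph node genes are all high in KPC-OG 2, KPC 2 and KPC 4 and near 0 in KPC 1 and KPC 3, while C1qa is at 69.0 CPM or above in every KPC-OG library and at 37.8 CPM or below in every KPC one.

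Of the 10 macrophage and dendritic cell markers, 7 were higher in KPC-OG and none lower. Those that did not pass were the dendritic cell markers Flt3, Xcr1 and Siglech, with log2 fold changes of 0.44, -0.35 and -0.22. The summed level of the 10 was 287.7 to 410.0 CPM in KPC-OG and 106.6 to 181.9 CPM in KPC. Adgre1, the macrophage protein F4/80, was at 23.4, 20.8, 25.0 and 30.2 CPM in KPC-OG and at 6.68, 12, 8.49 and 13.0 CPM in KPC, with KPC-OG 2 the lowest of its group. Within KPC, all 10 were highest in KPC 4 (8) or KPC 2 (2), as the T cell markers were. Siglech, a marker of plasmacytoid dendritic cells that did not pass, was high in the same libraries as Ms4a1. It was at 0.244, 2.62, 1.24 and 0.417 CPM in KPC-OG and at 0, 2.63, 0 and 2.36 CPM in KPC. None of the 8 markers shared by all leukocytes passed the test (median log2 fold change 0.78), although 2 did with DESeq2 or without KPC 4 and 3 with a replicate block. Ptprc, the leukocyte protein CD45, was at 31.1, 84.4, 81.4 and 50.2 CPM in KPC-OG and 17.8, 84.0, 17.5 and 95.9 CPM in KPC.

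Genes that carry or bind antibody had smaller errors than the antibody genes. Of the 10 tested of 11 listed genes of immunoglobulin binding and transport, 6 were higher in KPC-OG and none lower. Their median log2 fold change was 1.42. Fcgrt, the neonatal Fc receptor that recycles IgG, was at 35.5, 32.3, 33.3 and 41.6 CPM in KPC-OG and at 12.2, 15, 11.1 and 15.9 CPM in KPC, a log2 fold change of 1.39 ± 0.15 (standard error, edgeR adjusted p = 0.000465). Fcer1g, the signalling chain shared by activating Fc receptors, was at 17.2, 17.5, 16.9 and 23.4 CPM in KPC-OG and 2.67, 5.07, 2.92 and 6.25 CPM in KPC (2.12 ± 0.25, edgeR adjusted p = 0.000669). In both the groups did not overlap.

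Fcgr3, an activating IgG receptor, and Fcgr2b, the inhibitory one, rose by 1.86 ± 0.28 and 1.92 ± 0.28 on the log2 scale (± standard error, edgeR adjusted p = 0.00138 and 0.00125). Macrophages use all 4 of these genes. Of the 10 macrophage and dendritic cell markers, 7, though not Flt3, Xcr1 or Siglech, were also higher in KPC-OG. The cell source of these differences was not tested. Pigr, the epithelial receptor that carries IgA and IgM polymers into secretions, was at 99.2, 68.8, 80.5 and 71.9 CPM in KPC-OG and 52.1, 105.9, 76.4 and 199.6 CPM in KPC and did not pass (-0.44 ± 0.36, edgeR adjusted p = 0.372).

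Among 21 genes of B cell receptor signalling, 5 were higher and 1 was lower, against 17.4% and 16.6% of all tested genes. The other 15 did not pass, and the median log2 fold change was 0.64. The higher count was 3 without KPC-OG 2, KPC-OG 3, KPC 1 or KPC 3, 8 without KPC-OG 1 or with DESeq2, and 2 with library sizes centred on the median gene, and the lower count was 2 without KPC 1. The higher ones were Fcgr2b, Cd81, Vav2, Lyn and Btk, all of which other cell types also use, and the lower one was Pik3ap1. Cd81, a tetraspanin of the B cell co-receptor found on most cell types, was at 130.7, 121.0, 66.1 and 141.2 CPM in KPC-OG and 51.8, 47.3, 43.8 and 54.7 CPM in KPC (1.22 ± 0.22, edgeR adjusted p = 0.00287). Vav2, which acts downstream of antigen receptors, rose by 0.73 ± 0.15 (edgeR adjusted p = 0.00572), and Pik3ap1, an adaptor for phosphoinositide 3-kinase, fell by 0.67 ± 0.11 (edgeR adjusted p = 0.00205), although with library sizes alone its log2 fold change was 1.06 against the 1.82 of the median gene. With library sizes centred on the median gene, neither Vav2 (0.63) nor Pik3ap1 (-0.76) passed.

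Of 21 genes for survival, homing and help signals, 12 were tested and 1 passed. It was Tnfsf13, the cytokine APRIL, which binds TACI and BCMA. It was at 2.19, 2.57, 3.86 and 2.20 CPM in KPC-OG and 1.53, 1.13, 1.59 and 0.844 CPM in KPC, with a log2 fold change of 1.10 ± 0.35 (edgeR adjusted p = 0.0326). The groups did not overlap, but the call was lost when any of 6 libraries was left out in turn, under limma-voom and with library sizes centred on the median gene (0.96). Ccl21a, a chemokine that draws T cells and B cells into lymph nodes, was at 27.8, 81.8, 31 and 41.9 CPM in KPC-OG and 2.10, 29.7, 2.39 and 49.5 CPM in KPC and did not pass (1.10 ± 0.87, edgeR adjusted p = 0.367). It has a near-identical copy in the annotation, so its counts are uncertain.

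Of the 11 germinal centre genes found, 8 were tested and 1, Rgs13, passed as higher. Rgs13, a regulator of G protein signalling known from germinal centre B cells, mast cells and tuft cells, was at 7.37, 17.6, 5.43 and 13.2 CPM in KPC-OG and at 0.764, 0.563, 1.06 and 1.01 CPM in KPC (3.70 ± 0.47, edgeR adjusted p = 0.000803). It missed the threshold under limma-voom, at 3.48. The groups did not overlap. The KPC levels rest on 4, 3, 4 and 6 counts in KPC 1 to 4, at or near the floor of 3 counts. Differences among the KPC libraries therefore cannot be read. S1pr2, a receptor that confines germinal centre B cells, did not pass (0.42 ± 0.22, edgeR adjusted p = 0.170).

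In the plasma cell secretory programme, 1 of 17 tested genes was higher and 9 were lower in KPC-OG, with a median log2 fold change of -0.63. Acinar cells use most of these genes too, and 7 of the 8 acinar markers were also lower in KPC-OG. The cell source of these differences was not tested. Tent5c, a poly(A) polymerase of secretory cells, was at 37.8, 29.3, 54.7 and 31.6 CPM in KPC-OG and at 214.1, 135.8, 199.8 and 193.0 CPM in KPC (-2.28 ± 0.23, edgeR adjusted p = 0.000465). Edem1 and Derl3, which act in the disposal of misfolded proteins, fell by 1.93 ± 0.29 and 1.43 ± 0.22 on the log2 scale (edgeR adjusted p = 0.00142 and 0.00149), although with library sizes alone Derl3 was at 0.28 and Edem1 at -0.30, which did not pass, against the 1.82 of the median gene. Sdc1, the plasma cell marker CD138 that epithelium also makes, rose by 1.88 ± 0.27 (edgeR adjusted p = 0.00126).

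Of the 10 genes of early B cell development, 5 were tested. Kit, a receptor of progenitors and mast cells, fell, at 11.9, 10.9, 16.6 and 10.2 CPM in KPC-OG and 21.4, 21, 23.6 and 21.3 CPM in KPC (-0.82 ± 0.17, edgeR adjusted p = 0.00449), although with library sizes alone it was at 0.86 against the 1.82 of the median gene. Sox4, a factor of progenitors in many tissues, did not pass (0.70 ± 0.25, edgeR adjusted p = 0.0526), but did with DESeq2 (0.68). Vpreb1 and Igll1, the surrogate light chain of B cell precursors, had no read in any library. Rag1, a recombinase of the precursors, was read in KPC-OG 2 only, at 0.337 CPM.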

How the data were processed

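Whole pancreas RNA was sequenced on an Illumina HiSeq after ribosomal depletion, per the labels. Transcripts were quantified by the authors with Sailfish 0.6.3 (words of 20 bases, 1000 iterations, bias correction), per the file headers, on an index of mouse cDNA from Ensembl release 76. Tools named in the submitters' processing notes with no role are STAR 2.0.4b, bcl2fastq, limma and edgeR. The estimated counts and TPM values are those the authors deposited, with the transcript length. For the index, the genome build is not given in the sources used. Coordinates are of GRCm38 in GENCODE M21, to which 83827 of 86127 transcripts matched; the 2300 without a match, 1.45% to 3.04% of reads in KPC-OG and 3.93% to 4.23% in KPC, were left out. Transcript counts were summed per gene and rounded. Strand is not stated, so overlapping and antisense genes cannot be told apart.

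Groups and numbers come from the sample titles. The test was edgeR 4.0.16 quasi-likelihood (robust, R 4.3.3) over all 8 libraries with TMM scaling, filterByExpr, no covariate and Benjamini-Hochberg adjustment over all tested genes at 0.05. Standard errors were taken as the absolute log2 fold change over the square root of F. The alternatives were other scalings, DESeq2 1.42.0, limma-voom 3.58.1, other filters, thinning, libraries left out, a replicate block and log2(TPM + 0.1 or 1). Binomial intervals are exact (Clopper-Pearson, level 0.95), and the floor is 3 counts per library. No pair of libraries of a group was a duplicate (smallest chi-square over degrees of freedom 14.7). The test was checked on simulated data.

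The genes and the context and marker lists were chosen with earlier results of these data known. All listed genes are named. From each list the rule took up to 4 members past the test with the smallest adjusted p, or otherwise 2 of the highest level, and every passing member where at most 5 passed. The marker lists (acinar, duct, intestinal, red blood cell and adipocyte) not named by gene are given as counts. Glycam1, Ccl19, C1qa, Siglech, Flt3, Xcr1, Pigr, Vpreb1, Igll1 and Rag1 were named after their values were seen. Some items are not reported here.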

Additional observations from a re-analysis of the deposited data

Results flagged for a closer look

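In a group of 4 libraries, the highest or lowest value stood apart by Dixon's measure, its gap to the nearest other divided by the whole range of the group, in 6 of 118 groups examined (above Dixon's 95% critical value). Chance alone gives about 1 in 20. Of these, 2 were among the 66 groups of the B cell, plasma cell and immunoglobulin genes. Ighg1 stood out in KPC-OG 2 with a gap of 0.988 of the range, at 301.9 CPM against at most 4.13 CPM in the other 3 KPC-OG libraries. Cd37 stood out in KPC 4 with a gap of 1 of the range, since the other 3 KPC libraries had no read of it. The other 4 were Clu, low in KPC-OG 3 (0.861), Fcer1g, high in KPC-OG 4 (0.905), Kit, high in KPC 3 (0.863), and Pik3ap1, high in KPC 3 (0.88).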

How the results depend on the processing

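None of the 31 tested genes was called under other size factors (RLE), DESeq2, limma-voom or either filter. None was called with thinning, where 26 were tested, with the centred library sizes or without KPC-OG 2 and KPC-OG 3 together. Vpreb3 and Tnfrsf17 were not counted in any setting. Unscaled values differed. The genes called higher were 16 with library sizes only, 21 with log2(TPM + 0.1) and 23 with log2(TPM + 1). Over all genes those settings gave 13078, 12898 and 12946 higher and 99, 123 and 125 lower, and the centred library sizes gave 917 higher and 1400 lower, against 2486 and 2373. Leaving out 1 library gave 0 to 1 called higher (Blnk without KPC 2, Cd37 without KPC 4). Deviations of same-numbered libraries correlated at 0.274, 0.275, 0.0385 and 0.0361 for numbers 1 to 4, and 3 of the 4 KPC-OG libraries correlated best with their own number, KPC-OG 3 with KPC 2. As not every pair was above 0.1, the numbers were not taken to pair the libraries. With a replicate block 0 of the genes were called (3 at an unadjusted p under 0.05), and 2477 of all genes were higher and 2418 lower.

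The following fold changes turned in sign. With library sizes only, log2(TPM + 0.1) and log2(TPM + 1), log2 fold changes were 1.39, 1.99 and 1.03 for Cd79a, 1.70, 2.08 and 1.80 for Cd72, 1.71, 1.83 and 1.0 for Fcer2a, 1.37, 1.58 and 0.73 for Cr2, 1.55, 0.88 and 0.77 for Fcmr, 1.06, 0.90 and 0.86 for Pik3ap1, 0.28, 0.16 and 0.15 for Derl3 and 0.86, 0.57 and 0.48 for Kit. Fcer2a was 0.056 with DESeq2, 0.038 with no filter, 0.019 with a mean of at least 1 CPM and 0.24 with the replicate block. With limma-voom Cd79a was 0.14, Fcer2a 0.20, Cr2 0.42 and Fcrla -0.28, and thinned Fcer2a was 0.20, Cr2 0.13 and Cd4 -0.29. Without KPC-OG 2 and KPC-OG 3 together, Ms4a1 was -1.51, Cd79b -1.49, Cd22 -1.05, Cd37 -0.11, Fcrla -1.62, Fcrl1 -0.94, Siglecg -0.72, Tnfrsf13c -0.82, Blk -1.59, Bank1 -0.91, Pax5 -0.87, Pou2af1 -1.06, Mzb1 -0.27, Ighm -0.67, Ighg1 -1.20, Ighg2c -0.10, Cd4 -1.15, Trbc2 -0.51 and Ptprc -0.40. Leaving out 1 library, the ranges were -0.0069 to 1.14 for Bank1, -0.26 to 0.87 for Blk, -0.14 to 1.20 for Cd22, -0.28 to 7.72 for Cd37, -0.49 to 0.71 for Cd4, -0.15 to 0.064 for Cd72, -1.19 to 0.32 for Cd79a, -0.55 to 1.05 for Cd79b, -0.84 to 0.39 for Cr2, -0.46 to 1.5 for Fcer2a, -0.94 to 0.52 for Fcmr, -0.72 to 0.81 for Fcrla, -0.54 to 5.36 for Ighg1, -0.27 to 1.24 for Ighm, -0.58 to 1.0 for Ms4a1, -0.26 to 1.04 for Pou2af1, -0.11 to 0.62 for Ptprc, -0.18 to 0.73 for Tnfrsf13c and -0.23 to 1.21 for Trbc2. The cause of these turns was not tested. Effective library sizes of 15271994 to 38590257 in KPC-OG and 3768457 to 5922328 in KPC limit what low counts show in KPC.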

Other observations

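Variable segments, the exons that B cells join to make each antibody, followed the constant regions. The 205 annotated immunoglobulin variable segments together held 692, 15327, 1275 and 2866 counts in KPC-OG 1 to 4 and 45, 272, 22 and 394 counts in KPC 1 to 4. At least 1 count fell on 88, 176, 141 and 154 of the segments in KPC-OG and on 29, 96, 18 and 104 in KPC. In KPC-OG 2, the segment with the most counts was Iglv1, at 7.59% of variable counts (exact binomial 95% interval 7.17% to 8.02%), and Ighv1-26 held 16.7% of the heavy chain variable counts. Related variable segments share sequence, so the split among them is an estimate.

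Other heavy chain classes outside the list were also read most in KPC-OG 2. Ighg3 had 362 counts in KPC-OG 2 and 0, 29 and 77 in KPC-OG 1, 3 and 4, against 0, 9, 0 and 13 in KPC 1 to 4. Ighe, the heavy chain of IgE, had 158 counts in KPC-OG 2 and 0, 6 and 2 in KPC-OG 1, 3 and 4, against 0, 2, 0 and 2 in KPC 1 to 4. Ighe made up 0.762% of the heavy chain constant region counts of KPC-OG 2 (0.648% to 0.890%).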
